A study of Mus musculus with 8 samples.

Results

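The interferon response genes are 29 genes that cells switch on after interferon binds its receptor, described here in sorted cells of mouse mammary tumours. They were chosen by name, through the transcript accession that each array probe carries. Of the 29 genes, 27 had at least 1 matching probe, and 25 were measured well enough to be tested among 20265 genes in all. For Mx1 and Mx2 no probe could be named, and they are not analysed here. Ifit3 and Oas3 were well above background on 6 of 8 arrays and did not pass the filter, which asked for all 4 arrays of at least 1 population.

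The tumours came from mice with both the sSHIP and the C3(1) Tag transgenes, so every group carries both. As background, the sSHIP transgene expresses GFP from an internal promoter of the Inpp5d gene, and C3(1)-Tag drives the SV40 large T antigen from a rat promoter that is active in mammary epithelium. Dissociated tumours were sorted by flow cytometry into Lin-CD49f+GFP+ and Lin-CD49f+GFP- cells, and their total RNA was hybridised to 1-colour arrays. The labels name no agent, and give no strain, age or list of lineage antibodies. Each population has 4 arrays, with the numbers 566, 567, 573 and 631 in the titles, and the same number in both populations was taken as the same tumour. Whether the numbers stand for separate animals is not stated, so p-values measure the spread between these samples, which may be technical.

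Type I interferons bind a receptor whose kinases phosphorylate Stat2. Stat2 joins Irf9 in a complex that binds a DNA element, the interferon-stimulated response element, in front of its target genes. The targets include sensors of viral nucleic acid, proteins that block viral replication, chemokines, and Irf7, which drives further interferon production.

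RefSeq promoter windows (build GRCm38.p6, 250 bases before to 50 after a gene's start) were at hand for 22 of the 29 genes. The core of the response element, taken as 2 copies of GAAA with any 2 bases between them, was searched on both strands, with overlapping matches counted. It was present for 13 of these 22 genes, 59.1%, against 3.99% of 27025 genes with a window. Such a match of letters describes the window and is not a measured binding site. The 250 bases before the start are shown for 4 effector genes that hold the core element and followed a like order across tumours, and for Irf7, which followed it too and whose window holds no match. They lie at chr4:156200819-156201068 (minus strand) for Isg15, chr19:34640639-34640888 (plus strand) for Ifit1, chr12:26456453-26456702 (minus strand) for Rsad2, chr5:120907526-120907775 (minus strand) for Oas1a and chr7:141266425-141266674 (minus strand) for Irf7. Capitals mark the core element or its reverse complement.
Isg15: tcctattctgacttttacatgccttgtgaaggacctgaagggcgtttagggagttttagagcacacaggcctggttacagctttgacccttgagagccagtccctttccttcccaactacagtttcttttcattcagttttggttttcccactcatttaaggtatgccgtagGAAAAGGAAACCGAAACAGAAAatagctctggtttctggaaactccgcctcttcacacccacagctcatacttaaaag
Ifit1: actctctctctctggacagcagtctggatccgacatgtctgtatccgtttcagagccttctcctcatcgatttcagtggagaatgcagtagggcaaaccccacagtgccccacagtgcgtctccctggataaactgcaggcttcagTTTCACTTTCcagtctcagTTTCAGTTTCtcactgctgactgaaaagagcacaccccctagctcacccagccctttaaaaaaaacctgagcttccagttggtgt
Rsad2: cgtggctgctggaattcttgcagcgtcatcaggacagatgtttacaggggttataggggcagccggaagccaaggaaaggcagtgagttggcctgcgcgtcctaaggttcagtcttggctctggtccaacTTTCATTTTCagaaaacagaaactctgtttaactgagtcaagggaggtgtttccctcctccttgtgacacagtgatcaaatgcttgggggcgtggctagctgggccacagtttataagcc
Oas1a: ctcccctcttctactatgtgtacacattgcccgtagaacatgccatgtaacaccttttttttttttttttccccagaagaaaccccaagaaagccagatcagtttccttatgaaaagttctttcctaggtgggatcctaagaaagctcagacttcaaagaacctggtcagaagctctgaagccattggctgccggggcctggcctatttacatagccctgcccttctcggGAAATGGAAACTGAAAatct
Irf7: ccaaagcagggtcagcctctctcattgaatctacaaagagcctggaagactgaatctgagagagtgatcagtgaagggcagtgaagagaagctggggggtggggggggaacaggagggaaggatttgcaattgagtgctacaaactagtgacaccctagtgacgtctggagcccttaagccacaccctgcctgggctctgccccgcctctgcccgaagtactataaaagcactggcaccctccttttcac
Isg15 holds 3 overlapping copies, the first at position -78 from the start. Ifit1 holds 2 copies on the other strand, from -104, Rsad2 holds 1, at -120, and Oas1a holds 2 that overlap, from -20. Irf9, Oasl2 and Xaf1, also highest in 566 and lowest in 631, hold no match either. Gbp2 and Gbp3 hold a match and were highest in 567. Whether the element goes with the order of tumours was not tested.

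A level here is the log2 intensity of a gene's probe minus the log2 of the array's 75th percentile of intensity. Probes differ in brightness, so levels are compared between arrays for 1 gene at a time. Between 53.5% and 58.5% of gene spots passed the scanner's flag for well above background on 7 arrays. GFP-positive cells of 573 reached 34.1%, and the lowest level with that flag there was -1.28, against -5.44 to -4.59 elsewhere. Inpp5d, the gene behind the reporter, was higher in GFP-positive than GFP-negative cells of 566, 567 and 631. In GFP-positive cells of 573 it was not well above background, so its direction in 573 is uncertain. The arrays share 1 slide. Each population has its own column on it, so the column's part in any difference cannot be told apart from the population's. In bulk RNA, fewer cells of a type and less RNA per cell cannot be told apart either.

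The interferon genes were ordered by tumour. By the mean of its 2 arrays, 566 was highest for 20 of the 25 genes tested (18% of all genes), and 631 was lowest for 22 (23.7%). For most of these genes the GFP-negative cells of 631 had the lowest values of all. Each gene's deviation from its own mean over the 8 arrays had a median, over the 25 genes tested, of 0.93 and 0.84 in GFP-positive and GFP-negative cells of 566. The same median was -0.03 and 0.25 in 567, 0.32 and 0.49 in 573, and -0.77 and -2.12 in 631. Over all genes tested it stayed between -0.08 and 0.14. For the 21 interferon genes well above background on all 8 arrays the extremes were 0.92 in GFP-positive cells of 566 and -2.01 in GFP-negative cells of 631.

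**Figure D1:**
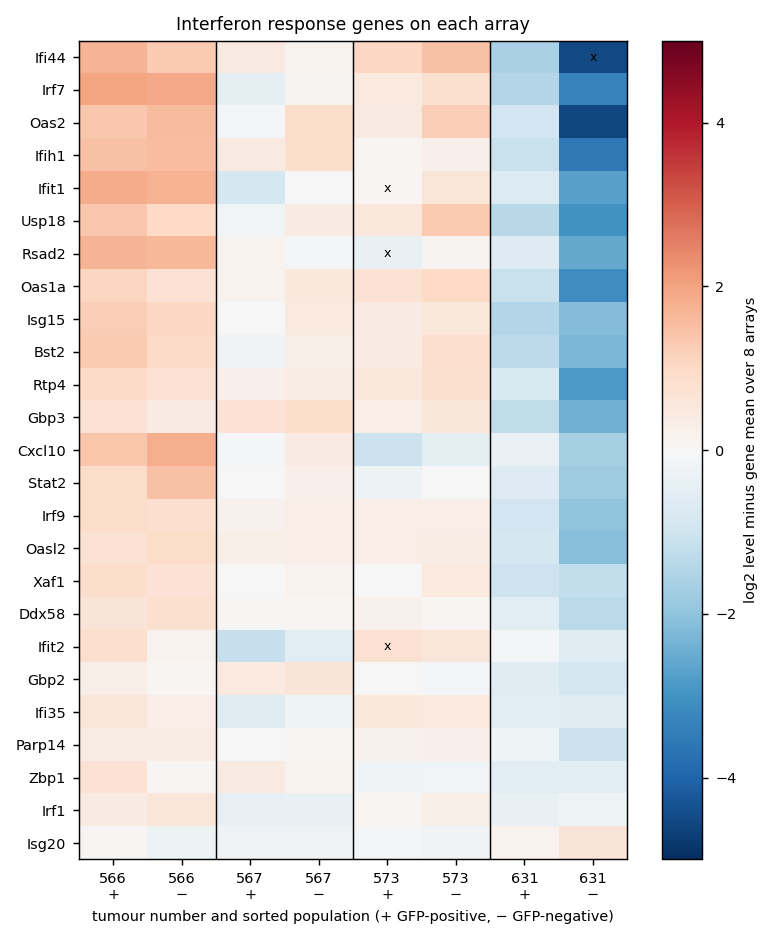
Colour gives the log2 level of each of the 25 tested genes minus that gene's mean over the 8 arrays. Columns are arrays, named by tumour number and population, and x marks a value not well above background. Most genes are above their mean in both columns of 566 and below it in both columns of 631, and Isg20 is highest in GFP-negative cells of 631.

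Tumours were compared with limma's F-test across all genes, with population as a term, which sets the tumours against the spread left after both and tests no single tumour. It called 21 of 25 interferon genes at an adjusted p under 0.05, where 28.8% of all genes were called. The 4 not called were Zbp1, Oas2, Parp14 and Isg20, and a missed threshold does not show that their levels were alike in the 4 tumours. Both called and lowest in 631 were 19 of the 25, against 8.13% of all genes tested. Both called and highest in 566 were 17 of the 25, against 4.7%. With the test limited to genes well above background on all 8 arrays, it called 18 of 21 (35.3% of genes).

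The distance between the highest and the lowest tumour, each the mean of its 2 arrays, is called the range. Its median was 2.61 over the 25 interferon genes and 0.82 over all genes. It passed 1 for 22 of 25, against 38.4% of all genes, and 2 for 16 of 25, against 10.6%. Both arrays of 631 lay below the 6 others for 19 of 25 genes, against 10.7%. Both arrays of 566 lay above the 6 others for 15 of 25, against 5.98%. Of the summed squares over arrays, tumour took 86.2% for the interferon genes and 76.6% for all genes, and population 1.67% and 7.11%.

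How many genes were called rested on few arrays, and the order on 2 tumours. Without the GFP-positive array of 566 the F-test called 5 of 25 (15% of genes), and without the GFP-negative one 5 of 25 (13.7% of genes). Leaving out the GFP-positive or the GFP-negative array of 567 gave 6 of 25 (8.14% of genes) and 9 of 25 (9.32% of genes). Without tumour 631 it called 7 of 25 (17.6% of genes), with a median range of 0.90 against 0.64 over all genes, and without tumour 566 9 of 25 (22.3% of genes), with 1.82 against 0.72. Isg15, Gbp3 and Xaf1 were called whichever 1 of the 8 arrays was left out, and no other gene of the 25 was. Quantile normalization gave 8 of 25 (12.1% of genes), a common floor at the raised background of the weakest array 5 of 25 (7.42% of genes), and no filter on dim probes 0 of 27 (0% of genes), with 20 of 27 and 16.8% of genes at an unadjusted p under 0.05.

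**Figure D2:**
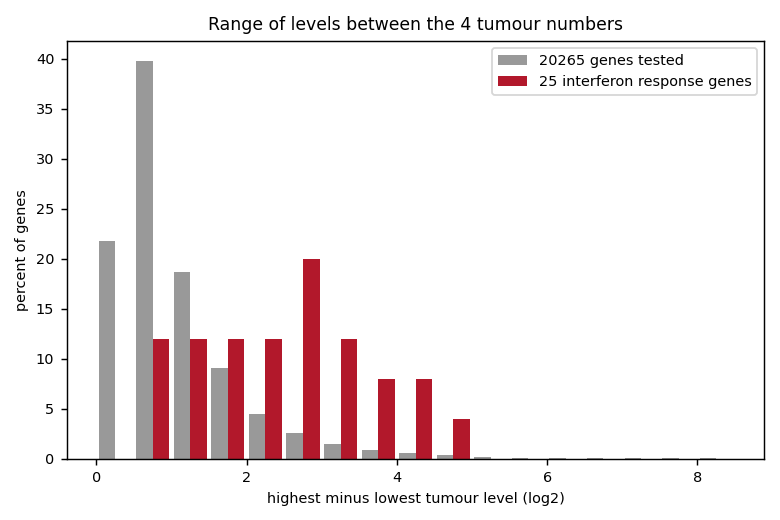
Bars give the percentage of genes in each class of range, the highest minus the lowest tumour level on the log2 scale, for all 20265 genes tested and for the 25 interferon response genes. The interferon genes lie further to the right, with 16 of 25 past 2 against 10.6% of all genes.

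The order could be read in each population alone. Among GFP-positive arrays, 566 was highest for 23 of 25 genes (24.8% of all genes) and 631 lowest for 19 (24.7%). Among GFP-negative arrays, 566 was highest for 15 (17.5%), 573 for 6 (30.8%), and 631 was lowest for 23 (23.9%).

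Among the signalling genes, Irf7 amplifies interferon production. Its level was 5.96 in GFP-positive and 5.90 in GFP-negative cells of 566, 3.50 and 4.11 in 567, 4.48 and 4.78 in 573, and 2.51 and 0.66 in 631 (GFP-positive cells first, here and for the genes that follow). Both arrays of 566 lay above and both of 631 below the rest, and the range was 4.34, or 20.2-fold (limma adjusted p = 0.0148). A second, dimmer probe of Irf7 was likewise highest in 566 and lowest in 631.

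Irf9, the DNA-binding part of the complex, stood at 2.88 and 2.79 in 566, 2.18 and 2.27 in 567, 2.30 and 2.28 in 573, and 0.99 and -0.06 in 631. Its populations lay close together except in 631, and the range was 5.17-fold (limma adjusted p = 0.0138). Stat2, which carries the activating domain, stood at 0.37 and 0.90 in 566, -0.57 and -0.30 in 567, -0.80 and -0.52 in 573, and -1.18 and -2.31 in 631. Neither 566 nor 631 overlapped the other tumours (5.21-fold, limma adjusted p = 0.0316). Irf1, a factor that interferon gamma induces strongly, stood at 4.17 and 4.38 in 566, 3.36 and 3.39 in 567, 3.86 and 4.06 in 573, and 3.38 and 3.54 in 631. It differed less, 1.87-fold, had its lowest level in 567, and its call (limma adjusted p = 0.0325) was lost whichever array was left out.

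The sensors of nucleic acid were low in 631 as well. Ifih1, the sensor MDA5 of long double-stranded RNA, stood at 1.35 and 1.44 in 566, 0.37 and 0.77 in 567, 0.02 and 0.15 in 573, and -1.20 and -3.66 in 631. Its 14.2-fold range (limma adjusted p = 0.0297) came mostly from the low values of 631. Ddx58, the sensor RIG-I, stood at 2.74 and 2.89 in 566, 2.17 and 2.19 in 567, 2.31 and 2.18 in 573, and 1.55 and 0.76 in 631. Tumours 567 and 573 overlapped between 566 above and 631 below (3.16-fold, limma adjusted p = 0.0258), and each of its 4 probes was lowest in GFP-negative cells of 631. Zbp1, a sensor of Z-form nucleic acid, stood at 2.996 and 2.35 in 566, 2.73 and 2.45 in 567, 2.13 and 2.14 in 573, and 1.73 and 1.75 in 631. It was lowest in 631 in both populations, but its 1.92-fold range on this probe was not called (limma adjusted p = 0.0613). A second, dimmer probe of Zbp1 was also lowest in 631, at -2.39 and -3.49, against -0.24 and -0.25 in 566. The size of its range therefore depends on the probe.

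Isg15 is a ubiquitin-like protein that is joined to other proteins, and Usp18 is the protease that removes it. Isg15 stood at 6.90 and 6.72 in 566, 5.65 and 6.18 in 567, 6.08 and 6.20 in 573, and 4.21 and 3.52 in 631. No array of 566 or 631 overlapped the others, and its p was the smallest of the list (7.72-fold, limma adjusted p = 0.00877). Usp18 stood at 2.29 and 1.96 in 566, 0.81 and 1.35 in 567, 1.47 and 2.25 in 573, and -0.44 and -2.07 in 631. GFP-negative cells of 573 reached the levels of 566, and 631 lay below the rest (10.4-fold, limma adjusted p = 0.0222).

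**Figure D3:**
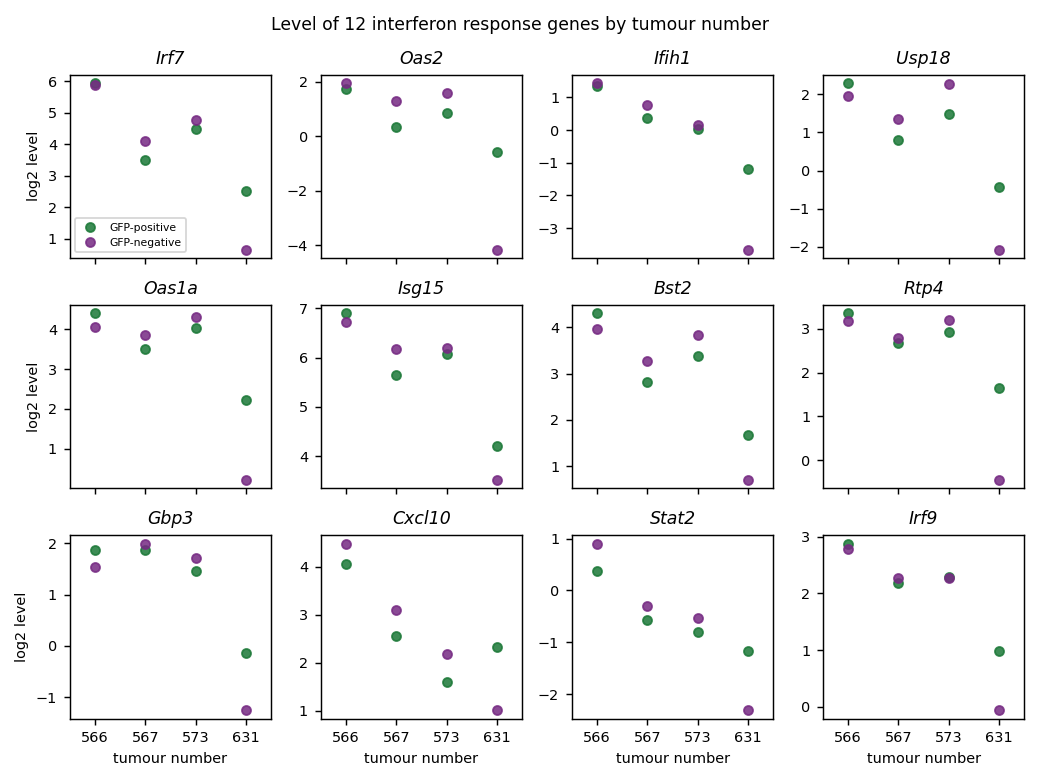
Each panel gives the log2 level of 1 gene on every array by tumour number, with a colour for each population, for the 12 interferon response genes with the widest range among those well above background on all 8 arrays. In each panel the GFP-negative array of 631 is the lowest of the 8.

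The oligoadenylate synthetases make a messenger that activates RNase L, which degrades RNA. Oas1a stood at 4.41 and 4.06 in 566, 3.50 and 3.87 in 567, 4.05 and 4.31 in 573, and 2.23 and 0.21 in 631. The first 3 tumours lay near each other and 631 below them (8.08-fold, limma adjusted p = 0.0272). Oas2 stood at 1.71 and 1.95 in 566, 0.32 and 1.29 in 567, 0.83 and 1.60 in 573, and -0.60 and -4.17 in 631. Its 18.6-fold range was not called (limma adjusted p = 0.0712), and its arrays of 631 were 3.57 apart. Oasl2, a relative of these enzymes, stood at 3.04 and 3.19 in 566, 2.55 and 2.60 in 567, 2.59 and 2.65 in 573, and 1.40 and 0.16 in 631. Both 566 and 631 were clear of the other tumours (5.06-fold, limma adjusted p = 0.0214). Oas3 was not tested and stood at -2.09 and -2.04, -3.53 and -2.65, -3.45 and -2.75, and -3.82 and -6.54 in the same order, where GFP-positive cells of 573 and GFP-negative cells of 631 were not well above background.

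Bst2, or tetherin, holds budding virus on the cell surface, and stood at 4.30 and 3.95 in 566, 2.81 and 3.28 in 567, 3.38 and 3.83 in 573, and 1.67 and 0.71 in 631. It was highest on both arrays of 566 and lowest on both of 631 (7.67-fold, limma adjusted p = 0.0132). The guanylate-binding proteins Gbp2 and Gbp3 act against pathogens inside vacuoles. Gbp3 stood at 1.87 and 1.54 in 566, 1.87 and 1.996 in 567, 1.47 and 1.72 in 573, and -0.14 and -1.26 in 631. The first 3 tumours overlapped and 631 lay below them (6.18-fold, limma adjusted p = 0.0121). Gbp2 stood at 2.99 and 2.80 in 566, 3.20 and 3.33 in 567, 2.70 and 2.61 in 573, and 2.10 and 1.83 in 631. Both were highest in 567 and lowest in 631, with Gbp2 over the smaller range (2.47-fold, limma adjusted p = 0.0207).

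Ifit1 and Ifit2 bind RNA, and Rsad2, or viperin, makes a nucleotide that stops viral RNA synthesis. These 3 were well above background on 7 of 8 arrays, not in GFP-positive cells of 573. Ifit1 stood at 0.36 and 0.25 in 566, -2.36 and -1.47 in 567, -1.39 and -0.88 in 573, and -2.19 and -4.21 in 631. Its 566 was clear of the rest, and in GFP-positive cells 567 was as low as 631 (limma adjusted p = 0.0374). Rsad2 stood at 0.38 and 0.34 in 566, -1.13 and -1.41 in 567, -1.68 and -1.18 in 573, and -1.94 and -3.87 in 631, again with 566 above and 631 below the others (limma adjusted p = 0.0286). Ifit2 stood at -2.25 and -2.89 in 566, -4.21 and -3.62 in 567, -2.33 and -2.48 in 573, and -3.16 and -3.68 in 631. It departed from the common order, with 567 lowest (limma adjusted p = 0.0389). Ifit3, not tested, stood at -0.15 and -0.82, -2.81 and -1.80, -1.74 and -0.87, and -3.31 and -5.77 in the same order and, like Oas3, was not well above background in GFP-positive cells of 573 and GFP-negative cells of 631. Whether the probes of Ifit3, Oas1a, Gbp2 and Gbp3 also bind transcripts of close relatives was not examined.

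Isg20, an exonuclease that degrades RNA, was the exception. It stood at 5.98 and 5.67 in 566, 5.73 and 5.71 in 567, 5.81 and 5.72 in 573, and 6.10 and 6.55 in 631. The range of 1.52-fold was not called (limma adjusted p = 0.201), and both arrays of 631 were the highest. A second, dimmer probe gave 1.84 and 1.45, 1.46 and 1.45, -0.04 and 1.02, and 0.59 and 0.62 in the same order, so the 2 probes disagree and the direction of Isg20 is uncertain.

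Cxcl10, a chemokine that attracts T cells, stood at 4.06 and 4.48 in 566, 2.57 and 3.09 in 567, 1.60 and 2.19 in 573, and 2.32 and 1.01 in 631. Only 566 was clear of the other tumours, and 573 was lowest among GFP-positive arrays (6.09-fold, limma adjusted p = 0.0288). Ifi44 had the widest range of the tested genes, 23.8-fold, at 0.51 and 0.12 in 566, -0.74 and -1.01 in 567, -0.16 and 0.28 in 573, and -2.82 and -5.70 in 631 (limma adjusted p = 0.0194). Its lowest value was not well above background, so the size of the range is uncertain. Rtp4, a chaperone of membrane receptors, stood at 3.35 and 3.19 in 566, 2.67 and 2.78 in 567, 2.93 and 3.20 in 573, and 1.64 and -0.45 in 631. Its 631 lay below the rest (6.37-fold, limma adjusted p = 0.0394).

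Xaf1, which promotes cell death, stood at 2.09 and 1.93 in 566, 1.17 and 1.36 in 567, 1.23 and 1.69 in 573, and 0.16 and -0.05 in 631. The populations of 631 were close to each other and below every other array (3.88-fold, limma adjusted p = 0.012). Ifi35 stood at 4.44 and 4.15 in 566, 3.21 and 3.63 in 567, 4.37 and 4.33 in 573, and 3.25 and 3.24 in 631. Tumours 566 and 573 were high and 567 and 631 low (2.15-fold, limma adjusted p = 0.0267). Parp14, an ADP-ribosyltransferase, stood at 1.28 and 1.27 in 566, 0.87 and 0.999 in 567, 1.12 and 1.13 in 573, and 0.67 and -0.18 in 631. It was not called (2.04-fold, limma adjusted p = 0.0931), although both arrays of 631 were the lowest. A second, dimmer probe of Parp14 was also lowest in 631, at -2.84 and -4.36, against -1.68 and -1.25 in 566. The size of its range therefore depends on the probe.

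The comparison the study was designed for, GFP-positive against GFP-negative cells, gave no call. Limma called 0 of 20265 genes at an adjusted p under 0.05, or 0%, and 161 genes (0.794%), none of the 25, had an unadjusted p under 0.05. With the tumour as a fixed block it also called 0, and 1113 genes (5.49%), again none of the 25, had an unadjusted p under 0.05. The mean difference was above 0 for 20 of 25 interferon genes, against 36.5% of all genes. Its median was 0.18, against -0.06 over all genes.

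Tumour 631 set that count. Its difference was above 0 for 22 of 25 genes (31% of all genes) and above 1 for 14 (4.96%). No gene of the 25 passed 1 in 566, 567 or 573, where 1.58%, 0.918% and 4.94% of all genes did. The difference was above 0 for 18 of 25 in 566 (52.1%), 4 in 567 (48.1%) and 6 in 573 (38.9%). The median difference of the 25 genes was 0.16 in 566, -0.20 in 567, -0.25 in 573 and 1.12 in 631. None of the 25 was higher in GFP-positive cells of all 4 tumours (3.39% of all genes were), and Irf1 alone was lower in all 4 (10.8% were). A second, dimmer probe of Irf1 differed by 0.09 and 0.06 in 566 and 567 and by -0.17 and -0.35 in 573 and 631. The direction of Irf1 is therefore uncertain.

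Without both arrays of 631, 6 of 25 mean differences were above 0 (46.6% of all genes), and the median was -0.09, against -0.02 over all genes. Leaving out a single array keeps the other array of that tumour in the opposite mean, so the value then also carries the distance between tumours. Without the GFP-negative array of 631, 3 of 25 were above 0 (45.2% of all genes), with a median of -0.48 against -0.02 over all genes. Without the GFP-positive array of 566, 12 of 25 were (37.4% of all genes), with -0.03 against -0.07. The scaling moved the split too. Median scaling put 18 of the 25 and 20.4% of all genes above 0, the percentile over probes well above background on all arrays 23 and 52.3%, normexp background correction 14 and 29.5%, and the common floor 15 and 50.8%.

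**Figure D4:**
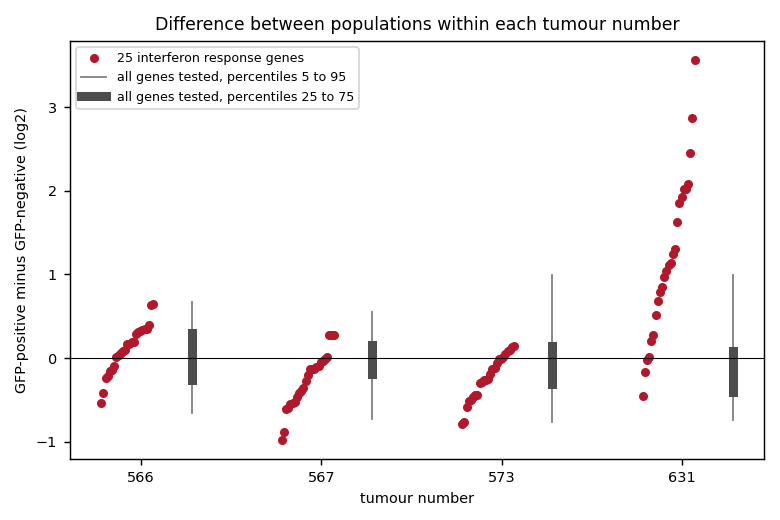
Points give the GFP-positive minus GFP-negative difference on the log2 scale of each of the 25 tested genes within each tumour, beside the 5th to 95th and the 25th to 75th percentile of all genes tested. No point of 566, 567 or 573 lies above 1 or below -1, and 14 of 25 points of 631 lie above 1.

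Within 631 the widest differences were those of Oas2 at 3.57, Ifi44 at 2.88, Ifih1 at 2.45 and Rtp4 at 2.09. In its GFP-negative cells Oas2 and Ifih1 stood at -4.17 and -3.66, where the lowest level with the background flag was -4.65. With the common floor their mean differences turned to -0.33 and -0.13, so the sizes of these differences are uncertain. Irf7 differed by 1.85 in 631 and by 0.06, -0.61 and -0.30 in 566, 567 and 573. Over the 4 tumours the level of Irf7 was 4.11 ± 1.47 in GFP-positive and 3.86 ± 2.26 in GFP-negative cells (SD, n = 4 each). Its mean difference of 0.25 was smaller than its SE, 1.13 without a block and 0.40 with the tumour as a fixed block. Isg15 stood at 5.71 ± 1.13 in GFP-positive and 5.66 ± 1.45 in GFP-negative cells (SD, n = 4 each). The mean difference of 0.06 (SE 0.78, or 0.22 with the block) turned to -0.0455 with median scaling and -0.0190 with normexp. Ifi44, at 0.77 (SE 1.32, or 0.52 with the block), rests on a GFP-negative value of 631 that was not well above background. Its difference in 631 and its mean difference are therefore uncertain. Zbp1, at 0.22 (SE 0.31, or 0.17 with the block), differed by 0.64 and 0.28 in 566 and 567 and by -0.02 and -0.02 in 573 and 631. Its second probe differed by 0.0059 and 0.15 in 566 and 567 and by -0.76 and 1.10 in 573 and 631. That probe was not well above background in GFP-positive cells of 573.

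Other genes of the pathway came from lists of related genes, of which 66 of 92 were tested. None was called between populations, and 28, or 42.4%, were called between tumours, against 28.8% of all genes. Of 11 interferon genes, 3 were tested and none was called by the F-test. These were Ifna1 (limma adjusted p = 0.241), Ifnl3 (limma adjusted p = 0.261) and Ifna5 (limma adjusted p = 0.386). Ifng, the only type II interferon, did not rise well above background anywhere.

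Of 9 receptor and kinase genes, 5 were called between tumours, 55.6% against the 28.8% of all genes. The receptor chain Ifnar1 was highest in 573, at 1.96, and lowest in 567, at 0.34 (limma adjusted p = 0.0147). The other chain, Ifnar2, was 1.20 in 566 and 2.35, its highest, in 631 (limma adjusted p = 0.0196). The kinase Jak1 was also highest in 631, at 3.60, and lowest in 573, at 2.33 (limma adjusted p = 0.0113). Ifngr1, a receptor chain for interferon gamma, was not called (limma adjusted p = 0.178).

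Of 15 sensing genes outside the list, 6 were called, 40% against 28.8% of all genes. Dhx58, a relative of Ddx58, stood at -0.26, -1.98, -1.02 and -3.46 in the 4 tumours (limma adjusted p = 0.0193), low in 631 like the sensors on the list, and was not well above background in GFP-positive cells of 573. Sting1, the adaptor of DNA sensing, ran the other way, from 1.94 in 566 to 3.36 in 631 (limma adjusted p = 0.0162). Tlr3, a receptor for double-stranded RNA, was -0.57 in 573 and -3.65 in 631, where its GFP-negative array was not well above background (limma adjusted p = 0.0224). The DNA sensor Cgas was highest in 573, at 2.29, and lowest in 567, at 1.31 (limma adjusted p = 0.0284). Tlr9 was not called (limma adjusted p = 0.983).

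Of 7 negative regulators, 2 were called, 28.6%, which is the share of all genes to within a percentage point (28.8%). Ptpn6, a phosphatase that acts on Jak signalling, was 0.94 in 566 and -1.64 in 631 (limma adjusted p = 0.0104). Socs1, an inhibitor of Jak kinases, was highest in 631, at 1.24, and lowest in 573, at -0.36 (limma adjusted p = 0.0116).

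Of 33 further interferon-induced genes, 23 were tested and 8, or 34.8%, were called between tumours, against 28.8% of all genes. Lgals9, a galectin, was 0.78 in 566 and -1.38 in 631 (limma adjusted p = 0.00822). Uba7, the enzyme that activates Isg15, was 0.81 and -0.72 (limma adjusted p = 0.024). Oasl1 was highest in 566, at 3.54, and lowest in 573, at 1.98 (limma adjusted p = 0.0251).

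Of 17 genes induced mainly by interferon gamma, 9 were tested and 7 called, 77.8% against 28.8% of all genes. Igtp, a GTPase that acts against vacuolar pathogens, stood at 2.79, 1.31, 2.52 and 0.32 in the 4 tumours (limma adjusted p = 0.00877). Its relatives Irgm1 and Irgm2 were likewise highest in 566 and lowest in 631 (limma adjusted p = 0.013 and adjusted p = 0.0148). Irf8, a factor of myeloid and B cells, was highest in 631, at 1.83, and -0.91 in 566 (limma adjusted p = 0.00859). In 573 it was well above background only in GFP-negative cells, at -2.85, so its level there is uncertain.

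Markers of other cells were summed as linear levels over the list members on the array, values not well above background included. Of 4 leukocyte markers 1 was tested, Ptprc did not rise well above background anywhere, and the sum was 0.175 to 0.765, or 0.148 to 0.478 over values well above background. Of 11 macrophage markers 8 were tested, and the sum was 25.01 to 29.86 in 566, 21.97 to 25.43 in 567, 28.19 to 35.16 in 573 and 21.68 to 23.88 in 631. Of these 11 markers, 11 and 10 were well above background on the arrays of 566, 8 and 11 on those of 567, 4 and 10 on those of 573 and 8 and 9 on those of 631. Most of each macrophage sum came from Itgam, Csf1r and Cd14. The largest part was that of Itgam, at 3.91 and 3.77 in 566 and 3.30 and 3.10 in 631. Adgre1 and Lyz2 were well above background on both arrays of 566 and neither of 631, while Fcer1g was higher in 631, at -0.84 and -0.36, than in 566, at -1.55 and -1.71. Of 10 markers of T and NK cells 3 were tested, with a sum of 3.81 to 5.9, and Cd8a, Ncr1 and Gzmb did not rise well above background anywhere. Of 7 dendritic cell markers, which include Bst2, 3 were tested, with sums of 111 to 133 in 566, 67.3 to 80.4 in 567, 120 to 146 in 573 and 77.7 to 86.8 in 631. Most of each sum came from the single probe of Siglech, at 6.49 and 6.87 in 566 and 6.16 and 6.32 in 631. Xcr1 did not rise well above background anywhere, and Itgax, Flt3 and Ccr7 did so on only 2 arrays each. Of 8 fibroblast markers 5 were tested, with sums of 19.2 to 108 in 566, 47.5 to 61.6 in 567, 5.13 to 6.76 in 573 and 15.6 to 61.6 in 631. Of 8 endothelial markers 4 were tested, with sums of 37.4 in GFP-positive and 3.54 in GFP-negative cells of 566, 3.78 to 7.28 in 567, 7.18 to 9.45 in 573 and 2.44 to 2.51 in 631. The part of these cells in the order of tumours was not tested.

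Epithelial genes also differed within 631. Epcam stood at 2.41 in its GFP-positive and -1.59 in its GFP-negative cells, and at 2.38 to 3.89 on the 6 other arrays. In the same 2 samples Krt7 stood at 2.87 and -1.54, and Krt14 at 5.50 and 1.23. Krt8, at 6.23 and 6.52, and Krt18, at 7.79 and 7.91, were not lower in the GFP-negative cells. The sum over 8 luminal markers was 323 and 334, and that over 6 basal markers 113 and 73.4. Most of both luminal sums came from Krt8 and Krt18, and most of the gap between the basal sums came from Krt14. Of the 8 luminal markers, 6 were higher in GFP-positive cells of 631 (31% of all genes), with a median difference of 3.38 over the 8. Of the 6 basal markers, 3 were higher there, with a median difference of 0.38 over the 6. Acta2, at 5.08 and 5.33, Trp63, at 2.71 and 2.75, and Itga6 were not. Pericyte markers summed to 15.3 and 27.7, and fibroblast markers to 61.6 and 15.6. Itga6, which encodes CD49f, stood at 4.06 and 4.24 in 631 and at 4.22 to 5.46 elsewhere. The part of these genes in the interferon difference within 631 was not tested.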

How the data were processed

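Each sample is 1 array, and its deposited measurement is the intensity of every spot, on a linear scale. Agilent Feature Extraction 10.7.3.1, named in the submitters' processing notes, wrote the scanner files. Per the file headers, its processed intensity is background-subtracted and spatially detrended within an array, and the other columns used are flags. The deposited series-wide table holds the same intensity, with all 62976 spots of an array equal. Here, control spots and outlier-flagged spots were dropped and replicate spots of a probe averaged, which kept 56555 of 56605 gene probes. Accessions were matched without versions to RefSeq genes of GRCm38.p6, which named 32964 probes, and the 29 genes were also looked up by older synonyms. To be tested, a gene needed a probe that passed the background flag on each of the 4 arrays of 1 or both populations, and its brightest such probe was used.

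Levels were log2 intensity minus each array's 75th percentile over gene spots. Populations were compared with limma 3.58.1 (R 4.3.3) without a block and tumours with its F-test, both adjusted by Benjamini-Hochberg over 20265 genes at 0.05. Both were first tested on simulated data. There the F-test missed the smallest shift of a single tumour that was simulated and found most of the larger ones. The simulated arrays, unlike the real ones, held no difference between tumours outside the shifted genes, so that outcome does not carry over to the calls here. The title numbers pair the arrays: deviations from the population means correlated across genes at 0.573 to 0.741 between arrays of 1 number, and at most 0.221 otherwise. The files used hold no mean spot signal, so normexp, with an offset of 50, used the median signal. All 29 genes are accounted for; from each pathway list, genes were named among the 4 with the smallest F-test p and the 1 with the largest, and 1 gene of these lists is not reported here. The genes, lists and tests were chosen with earlier results of these data known. Alternatives were other scalings, background correction, filters, probe rules, variance models, the tumour as a block, and each array or tumour left out. Counting the calls over the interferon genes under them was added after the data were seen.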

Additional observations from a re-analysis of the deposited data

Results flagged for a closer look

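In each population, and for the differences within tumours, the highest or lowest of the 4 values was compared with its nearest neighbour, as the ratio of that gap to the whole range. The ratio passed Dixon's 95% critical value for 4 values in 13 of 77 groups of 4 values, and the value that stood apart came from tumour 631 each time. Chance alone passes it at a rate of about 0.05 per group, and genes that move together are not independent. The rule was run on the interferon genes only, so whether values of 631 stand apart as often over all genes was not tested. The GFP-positive minus GFP-negative difference in 631 stood above those of the other tumours, at 1.04 for Irf9 (ratio 0.842), 1.13 for Stat2 (ratio 0.841), 2.45 for Ifih1 (ratio 0.894), 3.57 for Oas2 (ratio 0.839), 1.24 for Oasl2 (ratio 0.925), 1.31 for Cxcl10 (ratio 0.91) and 0.85 for Parp14 (ratio 0.857). The level in GFP-negative cells of 631 stood below those of the other tumours, at 3.52 for Isg15 (ratio 0.832), 0.21 for Oas1a (ratio 0.892), -4.17 for Oas2 (ratio 0.892), -1.26 for Gbp3 (ratio 0.86) and -0.45 for Rtp4 (ratio 0.885). The level of Isg20 there stood above them, with 6.55 for Isg20 (ratio 0.946).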

How the results depend on the processing

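The comparison of populations had 0 calls under every alternative run. With the replicate block, the tumour number as a fixed or random term, it also had 0, with 1113 and 1005 genes at an unadjusted p under 0.05, and it changed no other call. Between tumours, the number of genes called was 5834 of 20265 in all and 21 of 25 interferon genes. These became 2451 and 8 with quantile normalization, 1503 and 5 with a common floor, and 0 and 0 with no filter on dim probes, where 7666 of 45586 genes had an unadjusted p under 0.05 by limma; the cause was not tested. The median range of the interferon genes fell from 2.61 to 1.95 with the floor, which by construction raises the low values. Leaving out 1 array or tumour gave 1649 to 5185 genes and 5 to 21 interferon genes called, a median range of 0.90 to 3.19 and a median difference of -0.48 to 0.56. From 3 to 24 of 25 genes were then higher in GFP-positive cells, against 45.2% and 35.8% of all genes in the settings of these extremes. A single array left out unbalances the pairs, so differences between populations then also carry the distance between tumours. Single differences between populations, none of them called, changed sign as follows. Quantile normalization gave -0.0837 for Stat2, 0.0704 for Isg20 and 0.0259 for Ifi35. Median scaling gave -0.0883 for Stat2 and -0.0455 for Isg15. The percentile over probes detected on all 8 arrays gave 0.0560 for Isg20, 0.00997 for Cxcl10 and 0.0480 for Ifi35. Normexp gave -0.11 for Stat2, -0.0190 for Isg15, -0.00560 for Usp18, -0.0772 for Ifit1, -0.00828 for Oas2 and -0.0618 for Gbp2, the common floor -0.25 for Stat2, -0.13 for Ifih1, -0.0399 for Usp18, -0.0739 for Ifit1 and -0.33 for Oas2, and the mean of passing probes 0.0180 for Ifi35. With 1 array or tumour left out, the differences ran over these values: Bst2 -0.64 to 0.56, Cxcl10 -0.62 to 0.54, Ddx58 -0.22 to 0.49, Gbp2 -0.17 to 0.33, Gbp3 -0.48 to 0.74, Ifi35 -0.22 to 0.18, Ifi44 -0.60 to 1.45, Ifih1 -0.65 to 1.05, Ifit1 -0.70 to 0.79, Ifit2 -0.0683 to 0.58, Irf1 -0.31 to 0.0290, Irf7 -0.82 to 0.93, Irf9 -0.36 to 0.63, Isg15 -0.66 to 0.56, Isg20 -0.12 to 0.20, Oas1a -0.53 to 0.87, Oas2 -1.05 to 0.99, Oasl2 -0.42 to 0.59, Parp14 -0.15 to 0.33, Rsad2 -0.35 to 1.06, Rtp4 -0.41 to 0.81, Stat2 -0.57 to 0.50, Usp18 -0.82 to 0.65, Xaf1 -0.50 to 0.26. Only Zbp1 kept its sign, at 0.0216 to 0.44, on the brightest probe, which the test used. For single genes between tumours, 180 combinations of gene and alternative with no array left out stayed on the same side of the threshold, 58 lost the call and 8 gained it. On the array of GFP-positive cells of 573, signal over background limits the dim genes, and the 8 arrays limit the precision of every value.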
